A study of Mus musculus with 5 samples.

Results

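The circadian clock genes of the uterine luminal layer were followed through the days on which a mouse embryo attaches. The set consisted of 10 genes matched by symbol in the count table, out of 23420 genes listed there: Arntl, Clock, Per1, Per2, Per3, Cry1, Cry2, Nr1d1, Nr1d2 and Dbp. They were matched by name, with earlier results of these data known, and all 10 were among the 12918 genes that passed the filter on low values, which required an average over the libraries of 1 CPM or more (CPM, counts per 1000000 of a library).

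The molecular clock is a feedback loop of transcription. Arntl (also called Bmal1) and Clock form a heterodimer that binds E-boxes and activates the Period and Cryptochrome genes, whose proteins return to the nucleus and repress that heterodimer. That pair also drives Nr1d1 and Nr1d2 (Rev-erb alpha and beta), nuclear receptors that repress Arntl, and Dbp, a PAR bZIP transcription factor that acts on D-boxes. Reproductive tissues, the uterus among them, carry such a clock, and in mouse tissues with a running clock the mRNAs of Dbp, Nr1d1 and the Period genes peak at a different phase from that of Arntl.

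The data were 5 RNA-seq libraries of the luminal layer from wild-type C57BL/6N uteri. There was 1 library each of day 3 morning, day 4 morning and day 4 evening of pregnancy, and day 5 morning had 1 library from each of 2 sites, the layer distant from the attached embryo (day 5 away) and the layer that surrounds it (day 5 around). The labels also name a pole, Mpole for day 5 away and Ampole for day 5 around. The paper abbreviates the mesometrial pole as M and the anti-mesometrial pole as AM. Nearness to the embryo and pole of the uterus therefore cannot be told apart. Days were counted from the vaginal plug as day 1, and no group carried a transgene, deletion or treatment. The hour of collection, the lighting schedule and the number of mice per library are not given in the sources used here, and 1 evening stood against mornings that differ in day and site.

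With 1 library per condition, no difference below has a replicate check, no test was run, and a difference between libraries cannot be told apart from a difference between animals or dissections. An exact permutation test of 1 evening against 4 mornings could not go below p = 0.2. Total counts ranged from 15334674 to 19529491 per library. Values are CPM scaled by TMM unless said otherwise, differences are on the log2 CPM scale with a prior count of 2, and brackets give exact 95% Clopper-Pearson intervals of the ratio of counts, which cover counting error only. A difference was called past 2-fold when it lay beyond 1 on the log2 scale.

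The labelled tissue was checked against epithelial and stromal markers. The summed level of 6 epithelial markers (Krt8, Krt18, Krt19, Epcam, Cdh1 and Cldn4) was between 2764 and 5450 CPM, with none at 0 in any library, and that of 7 stromal markers was between 347 and 491 CPM. The 6 mark epithelium in general, so their sum does not set luminal cells apart from glandular ones. Within that sum, Krt19 was at 866 CPM on day 3 morning and 38.0 in day 5 away, but Krt18 at 747 and 1088. These are bulk samples of a dissected layer, in which fewer cells of a type and less RNA per cell cannot be told apart.

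The promoter sequences of 3 members are shown because they hold the motifs through which the loop is wired, an E-box or a D-box. RefSeq start sites on GRCm38.p6 gave windows of 250 bases upstream of the start for 9 of the 10 genes, all but Per2, with 13 windows in total. Each was searched on both strands for the E-box CACGTG, the D-box TTATGTAA or TTACGTAA, the ROR element core AGGTCA and the CRE TGACGTCA. Of all 32851 such windows in the table, 6.02% held the E-box, 0.931% a D-box, 14.0% the ROR element core and 1.55% the CRE. The windows are printed 5′ to 3′ in the direction of the gene, with each matched motif in capitals: the Per3 window is chr4:151044666-151044915 on the minus strand, that of Per1 chr11:69098699-69098948 on the plus strand, and that of Cry1 chr10:85185055-85185304 on the minus strand.
Per3: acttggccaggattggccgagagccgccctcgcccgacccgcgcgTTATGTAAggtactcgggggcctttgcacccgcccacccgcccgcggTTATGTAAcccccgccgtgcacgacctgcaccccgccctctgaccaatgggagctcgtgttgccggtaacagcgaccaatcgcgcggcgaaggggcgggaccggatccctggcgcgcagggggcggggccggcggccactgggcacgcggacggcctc
Per1: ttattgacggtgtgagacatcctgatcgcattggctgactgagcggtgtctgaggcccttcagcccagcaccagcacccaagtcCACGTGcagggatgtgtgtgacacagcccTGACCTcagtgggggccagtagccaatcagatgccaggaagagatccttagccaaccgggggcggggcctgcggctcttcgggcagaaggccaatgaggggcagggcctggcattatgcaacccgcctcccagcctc
Cry1: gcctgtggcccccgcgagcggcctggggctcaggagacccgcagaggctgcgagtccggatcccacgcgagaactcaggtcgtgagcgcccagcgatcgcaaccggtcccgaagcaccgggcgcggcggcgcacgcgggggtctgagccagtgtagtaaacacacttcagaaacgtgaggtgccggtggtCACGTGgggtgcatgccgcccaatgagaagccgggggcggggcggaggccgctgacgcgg

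Per3 held a pair of D-boxes, whose first bases lay 205 and 158 bases before the start. Per1 held an E-box 166 bases and a ROR element core, in reverse complement, 137 bases before 1 of its starts. The other Per1 window held none of the motifs, and Cry1 held an E-box 60 bases before its start. The core was also found 77 bases before the start of Nr1d2 and 119 bases before 1 of the starts of Clock. The windows of Arntl, Cry2, Nr1d1 and Dbp held none of these letters, which says nothing about elements outside the window. A match is a description of sequence and not a measured binding site.

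On day 4, all 10 clock genes had a higher level in the evening than in the morning library, while 49.5% of all 12918 genes did. The differences were moderate. Nr1d1 alone was past 2-fold higher (7.2% of all genes were), none was past 2-fold lower (6.94% of all genes), and the median of the 10 differences was 0.70 against 0.00 for all genes. The intervals of Per1 and Dbp included 0, so their differences were within counting error. The evening was higher for all 10 also under the other scalings of the libraries tried.

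**Figure D1:**
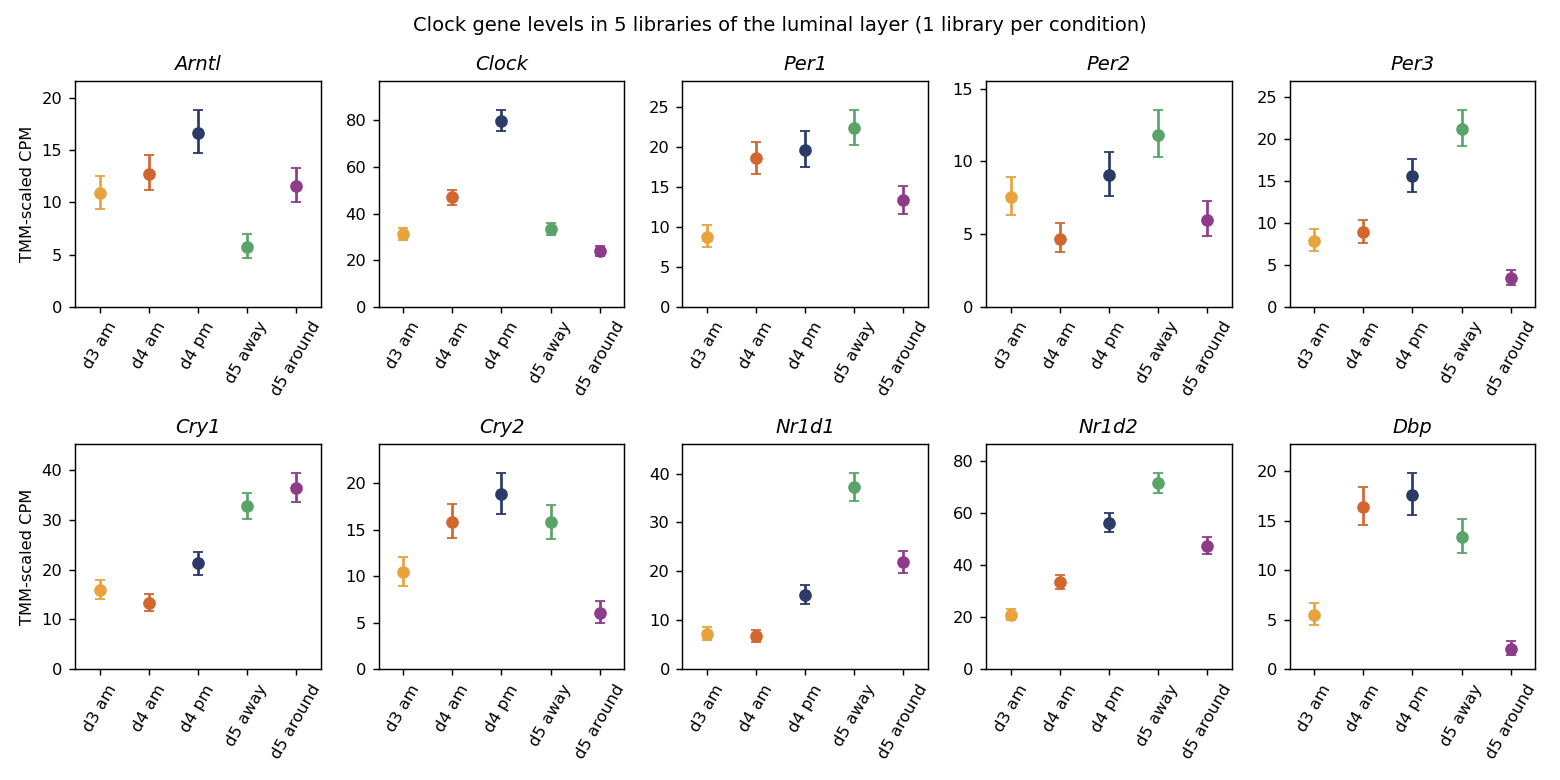
TMM-scaled CPM (vertical axis, linear from 0) of each clock gene in the 5 libraries (d3 am, day 3 morning; d4 am, day 4 morning; d4 pm, day 4 evening; d5 away and d5 around, day 5 morning away from and around the attached embryo). Points are single libraries and bars are exact 95% counting intervals. Arntl, Clock, Cry2 and Dbp were highest on day 4 evening, Per1, Per2, Per3, Nr1d1 and Nr1d2 in the day 5 library away from the embryo, and Cry1 around it.

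The activators were both highest in the evening library. Arntl (chr7:113207465-113314126, plus strand, GRCm38/mm10 as are all gene positions here) had 10.9 CPM on day 3 morning, 12.8 in the morning and 16.7 in the evening of day 4, and 5.74 and 11.6 in day 5 away and day 5 around. The library away from the embryo was thus the lowest, and its 107 counts were the fewest of the 5. Clock (chr5:76212177-76304548, minus strand) was at 31.0, 46.9, 79.8, 33.3 and 23.8 CPM in the same order. The evening level stood above every morning, by 0.76 [0.64, 0.89] over day 4 morning, the nearest, and by 1.74 [1.58, 1.91] over the layer around the embryo, the farthest. For Arntl the evening excess was 0.39 [0.13, 0.65] over day 4 morning and 1.52 [1.21, 1.88] over the layer away from the embryo.

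The Period genes, repressors of the activator pair, did not share 1 pattern. Per1 (chr11:69098956-69109957, plus strand), which also responds rapidly to hormones and other signals, was at 8.75, 18.5, 19.7, 22.3 and 13.3 CPM on day 3 morning, day 4 morning, day 4 evening, day 5 away and day 5 around. Its evening and day 4 morning levels differed by 0.08 [-0.14, 0.31], and the low libraries were day 3 and the layer around the embryo. Per2 (chr1:91415982-91459328, minus strand) was at 7.54, 4.68, 9.04, 11.8 and 5.98 CPM. Its lowest library was the day 4 morning, 0.93 [0.55, 1.36] below the evening. Per3 (chr4:151003655-151044622, minus strand) was at 7.89, 8.91, 15.6, 21.2 and 3.43 CPM. It had the widest spread of the Period genes, 6.20-fold between the lowest and the highest library, and the 2 extremes were both from day 5 morning.

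The Cryptochromes, the other repressors of the loop, went apart after day 4. Cry1 (chr10:85131700-85185054, minus strand) had 15.9 CPM on day 3 morning, 13.4 and 21.2 in the morning and evening of day 4, 32.7 in day 5 away and 36.4 in day 5 around. Both day 5 libraries were above the evening library, which was above the day 3 and day 4 mornings. Cry2 (chr2:92403647-92434069, minus strand) was at 10.5, 15.9, 18.8, 15.8 and 6.04 CPM. The ratio of Cry1 to Cry2 counts within a library was 1.52, 0.842, 1.13, 2.07 and 6.03 in the same order. On the log2 scale it was 1.05 [0.85, 1.25] in day 5 away and 2.59 [2.29, 2.91] in day 5 around, which lay farther apart than counting error.

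The Rev-erb genes, repressors of Arntl, were both highest away from the embryo on day 5. Nr1d1 (chr11:98767935-98775242, minus strand) was at 7.26, 6.74, 15.2, 37.2 and 21.9 CPM from day 3 morning to day 5 around. Its evening level was 1.16 [0.85, 1.5] above day 4 morning, a 2.23-fold difference. The level away from the embryo on day 5 was again 1.29 [1.08, 1.51] above the evening, and 5.45-fold above that of the previous morning. Nr1d2 (chr14:18204056-18239106, minus strand) was at 20.9, 33.5, 56.2, 71.4 and 47.4 CPM. Its order of libraries differed from that of Nr1d1, with the layer around the embryo 0.24 [0.11, 0.38] below the evening for Nr1d2 and 0.53 [0.29, 0.77] above it for Nr1d1.

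Dbp (chr7:45705247-45710203, plus strand), an output of the clock, had the widest spread of the 10. It had 5.53 CPM on day 3 morning, 16.4 and 17.6 in the morning and evening of day 4, 13.4 in day 5 away and 2.09 in day 5 around, an 8.44-fold span from the last, with 36 counts, to the evening, with 279. The day 4 pair did not differ beyond counting error, at 0.10 [-0.14, 0.34], and the low libraries were day 3 and the layer around the embryo. Of the 1678 counted bases of Dbp, 539 are shared with Sphk2 on the opposite strand. The library kit does not mark the strand, so reads of the shared bases cannot be assigned to one of these genes, and Sphk2 was itself counted between 857 and 1443 times. Cry2 shares 149 bases with the opposite-strand D930015M05Rik, which had at most 2 counts in any library.

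Across genes, levels were compared per length as RPKM (reads per 1000 bases of the authors' gene length and per 1000000 TMM-scaled counts). The mean RPKM over the 5 libraries ran from 9.89 for Nr1d2 through Cry1 (7.93), Nr1d1 (6.72), Dbp (6.57), Clock (5.75), Arntl (3.96), Per1 (3.51), Cry2 (3.07) and Per3 (1.92) to 1.34 for Per2. The ranges over libraries of every pair of neighbours in this order overlapped. These ranges span days and sites, and the genes share the same libraries, so the overlap does not show that neighbours were alike. Clock, for 1 pair, was at 10.7 RPKM against 5.74 for Arntl on day 4 evening, but at 3.18 against 3.97 in day 5 around. Per2 never passed 2.03 RPKM and Nr1d2 never went under 4.5. The median span of the clock genes over the 5 libraries was 1.68 on the log2 CPM scale, against 1.36 for all genes.

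Against the other mornings the evening excess depended on the day and on the site. All 10 clock genes were higher on day 4 evening than on day 3 morning (50% of all genes were), with a median difference of 1.01 and the largest for Dbp, 1.65 [1.33, 2.02]. Against the day 5 layer around the embryo 8 were higher (50.9% of all genes), with a median of 0.57, and Cry1 and Nr1d1 were lower. Against the layer away from the embryo the picture turned, with 6 lower (50.9% of all genes were lower) and a median of -0.26.

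Taking all 4 mornings at once, Arntl, Clock, Cry2 and Dbp were higher in the evening than in each of them, 4 of 10 where 14.7% of all genes were, and none was lower than all 4, again against 14.7%. No clock gene was past 2-fold above every morning (0.619% of all genes) or past 2-fold below every morning (1.35%). The count of 4 rested on the library away from the embryo: without it, 8 of the 10 were above the remaining mornings, where 18.4% of all genes were. Without the day 4 morning library Clock was past 2-fold above each remaining morning, where 1.91% of all genes were. The evening exceeded the mean of the mornings by 1.28 for Clock, whose mornings had an SD of 0.40 over the 4 libraries, and by 1.29 for Dbp, whose mornings had an SD of 1.33. The value of Dbp was 0.72 without day 5 around and 1.69 without day 4 morning. This SD is a spread over days and sites and not over replicates.

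**Figure D2:**
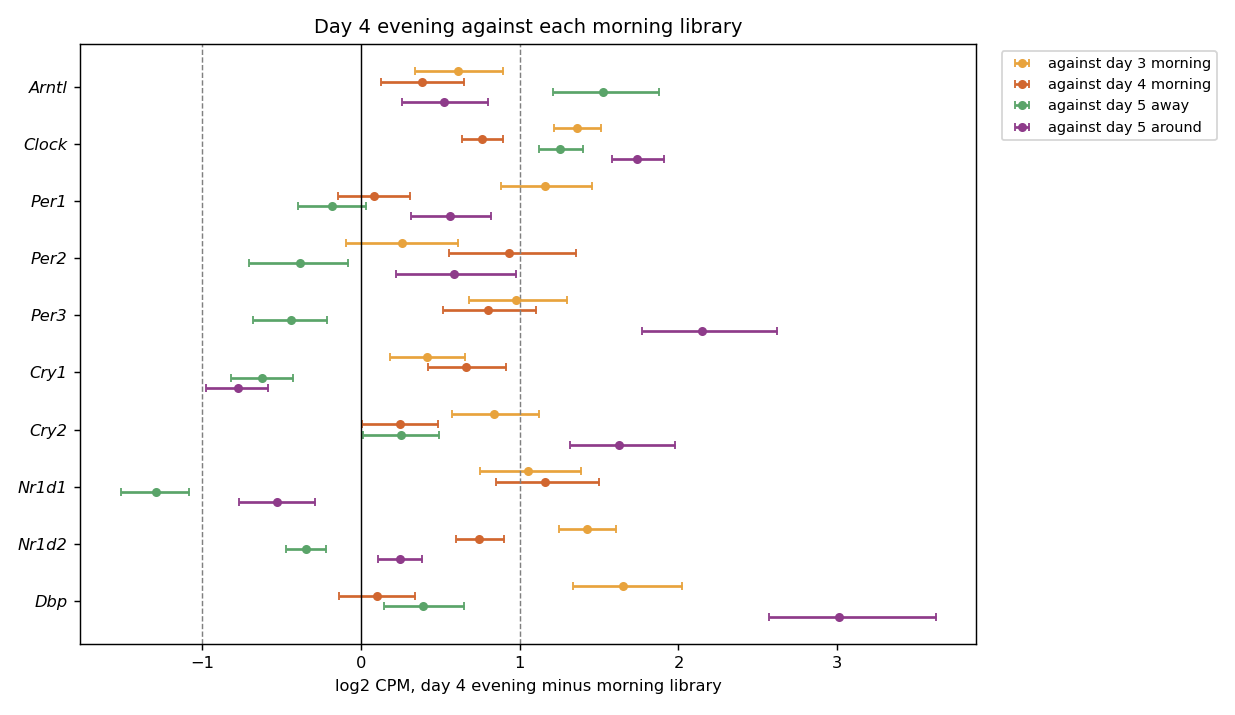
Difference in log2 CPM between day 4 evening and each morning library (horizontal axis) for the 10 clock genes, with exact 95% counting intervals as bars. Dashed lines mark 2-fold. Points against day 3 and day 4 mornings lie right of 0 for all 10 genes, those against the day 5 layer away from the embryo run from -1.29 (Nr1d1) to 1.52 (Arntl), and Dbp against the layer around the embryo lies at 3.01.

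The day 4 and day 3 mornings, a pair that matches in time of day and differs in day of pregnancy, also differed in clock genes. Per1 and Dbp were past 2-fold higher on day 4 morning, by 1.07 [0.80, 1.37] and 1.55 [1.23, 1.92], which is 2 of 10 where 7.41% of all genes were called. None was past 2-fold lower, where 11.5% of all genes were. Per2 was lower by 0.68 [0.28, 1.1], and the intervals of Arntl, Per3, Cry1 and Nr1d1 included 0. Under library totals in place of TMM, Dbp alone stayed past 2-fold higher, where 4.16% of all genes were. With those totals the 10 genes split into 5 higher and 5 lower, where TMM gave 7 and 3. The shares of all genes by direction were not counted for this pair. Library totals moved the median of all genes between these libraries to -0.29. The day 5 libraries were mornings as well. Against day 4 morning, Nr1d1 (2.45), Per2 (1.32), Cry1 (1.28), Per3 (1.24) and Nr1d2 (1.09) were past 2-fold higher in day 5 away. Arntl (-1.14) was past 2-fold lower there. In day 5 around, Nr1d1 (1.68) and Cry1 (1.44) were past 2-fold higher than on day 4 morning, and Dbp (-2.91), Cry2 (-1.38) and Per3 (-1.35) lower. The shares of all genes past 2-fold in these day 5 comparisons were not counted.

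Both day 5 libraries were taken in the morning, and clock genes differed between their sites. Dbp was 6.13-fold lower around the embryo than away from it, -2.62 [-3.23, -2.17], Per3 6.03-fold lower, -2.59 [-3.05, -2.23], and Cry2 2.59-fold lower, -1.37 [-1.73, -1.06]. These were the 3 past 2-fold lower, where 15% of all genes were, and none was past 2-fold higher, where 13.3% of all genes were. Arntl was the highest of the other direction, at 1.00 [0.66, 1.36] higher around the embryo, just under the threshold. Per2 (-0.97), Nr1d1 (-0.76), Per1 (-0.74), Nr1d2 (-0.59) and Clock (-0.48) were lower around the embryo with intervals below 0, and Cry1 did not differ beyond counting error, at 0.15 [-0.01, 0.32].

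By direction alone 8 of 10 were lower around the embryo, and 53.2% of all genes were. The median of the clock genes was -0.75, against -0.05 for all genes. Only 2.33% of genes had a lower difference than Dbp and 2.45% a lower one than Per3. Under library totals the median of all genes moved to -0.36, that of the clock genes to -1.06, and Cry1 changed direction, so that 9 of the 10 were lower. The share of all genes lower under library totals was not counted, and the 53.2% is that under TMM.

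**Figure D3:**
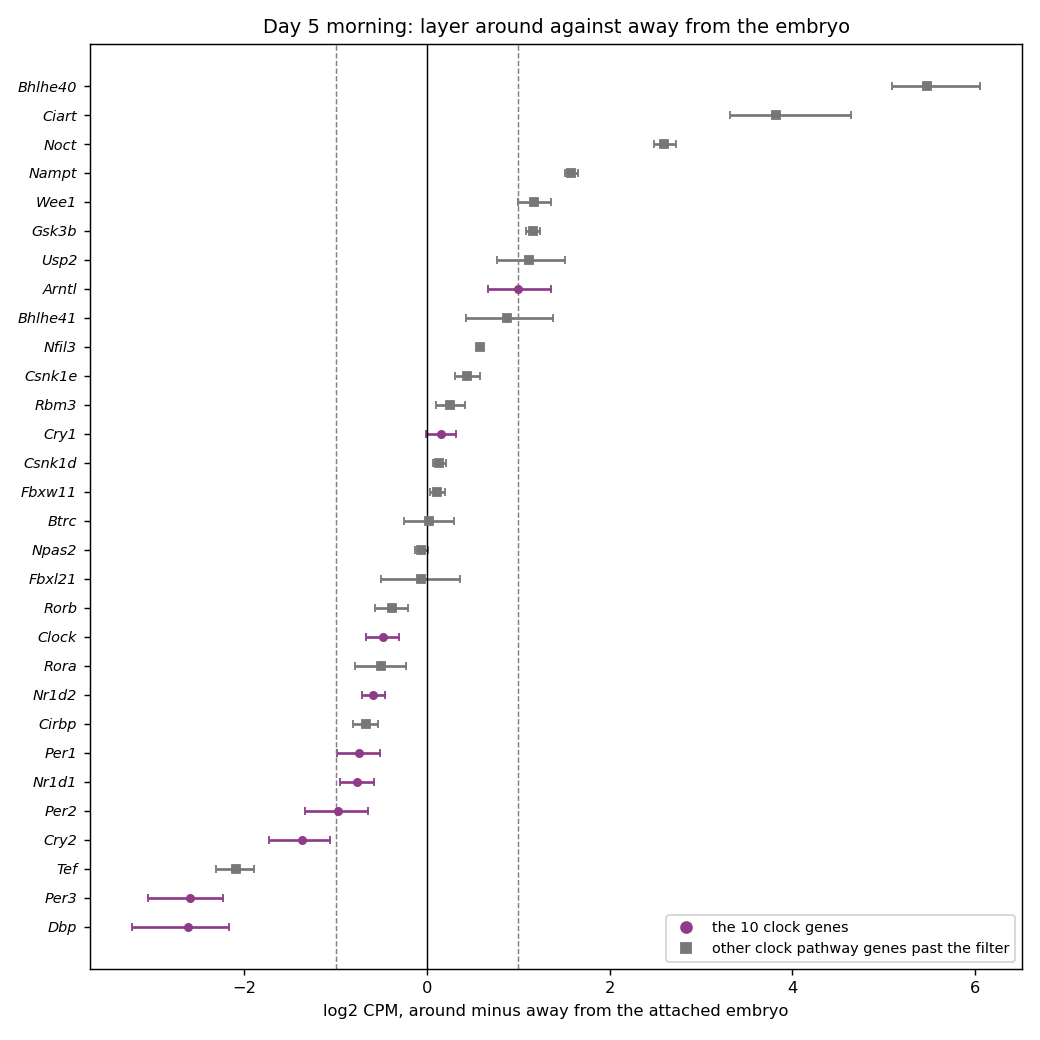
Difference in log2 CPM between the day 5 layers around and away from the attached embryo (horizontal axis) for the 10 clock genes (circles) and the 20 other clock pathway genes past the filter (squares), sorted by value, with exact 95% counting intervals as bars. Dashed lines mark 2-fold. Dbp (-2.62) and Per3 (-2.59) lie at the low end with Tef (-2.09), and Bhlhe40 (5.48) and Ciart (3.82) at the high end.

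The day 5 libraries also differed in markers of other cells. The summed level of 3 smooth muscle markers was 27.1 CPM in day 5 away and 374 in day 5 around, that of 4 endothelial markers 40.5 and 93.9, that of 4 glandular markers 1.13 and 24.4, and that of 5 blastocyst and trophoblast markers 1.93 and 59.6. Of the glandular sum around the embryo, Lif made 17.7 CPM, a gene that is also expressed in the stroma around attached embryos, and the gland-defining Foxa2 was at 1.22 CPM. The embryonic markers Pou5f1, Nanog and Cdx2 were at 0 in every library except the one around the embryo. Most of the sum there came from the other markers of that list, Eomes (35.4 CPM) and Elf5 (18.4 CPM), which were counted in every library. The epithelial markers themselves summed to 2764 and 5450 CPM, the stromal ones to 428 and 347, and the 4 leukocyte markers to 44.5 and 46.3. Within these lists, looked at after the sums were seen, members went apart: Hand2 was at 20.9 CPM away from and 132 around the embryo but Col3a1 at 142 and 42.3 and Dcn at 91.6 and 14.1, and Cd68 was at 11.8 and 38.9 but Ptprc at 13.4 and 3.83, Adgre1 at 10.2 and 1.45 and Csf1r at 9.11 and 2.15. Of the smooth muscle sum around the embryo, Des made 354 CPM (19.8 away), with Acta2 at 15.8 (6.06 away) and Myh11 at 4.24 (1.29 away). Of the endothelial markers, Cdh5 was at 7.13 CPM away and 71.4 around, and Pecam1 at 5.84 and 7.20. Tek went the other way, at 25.3 and 14.3, as did Kdr, at 2.25 and 1.05. The part of these other cells in the differences between the day 5 sites was not tested. Between the day 4 libraries the same sums stood with smooth muscle at 18.3 CPM in the morning and 19.4 in the evening, endothelium at 20.1 and 22.4, stroma at 410 and 457, leukocytes at 46.7 and 41.3 and glandular markers at 6.01 and 1.83. The blastocyst and trophoblast list summed to 11.7 and 7.40 CPM. All of this was Elf5 (8.24 and 4.87) and Eomes (3.45 and 2.53).

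The ratio of a clock gene's counts to those of Arntl in the same library does not depend on library scaling, and sets each gene against Arntl. All 9 ratios share that denominator, which was at its lowest, 5.74 CPM, in day 5 away, and all 9 were highest there. That shared maximum is therefore not 9 separate results, and Clock, Cry2 and Dbp themselves had a lower level there than on day 4 evening. On the log2 scale Dbp to Arntl was -0.98 on day 3, 0.37 in the morning and 0.08 in the evening of day 4, 1.22 in day 5 away and -2.47 in day 5 around. Nr1d1 to Arntl was -0.58, -0.92, -0.14, 2.70 and 0.92 in the same order, and Per3 to Arntl was -0.46, -0.52, -0.10, 1.89 and -1.75. For Dbp and Per3 the day 5 pair held the highest and the lowest ratio, with Dbp to Arntl at a count ratio of 2.34 in day 5 away and 0.181 in day 5 around. For Nr1d1 the lowest ratio was that of day 4 morning. The evening ratios of Dbp, Nr1d1 and Per3 had intervals that included 0. These ratios are of counts not corrected for gene length, so 0 marks equal counts and not equal levels. By RPKM in the evening, Dbp was at 10.5, Nr1d1 at 5.77 and Per3 at 2.62, against 5.74 for Arntl.

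**Figure D4:**
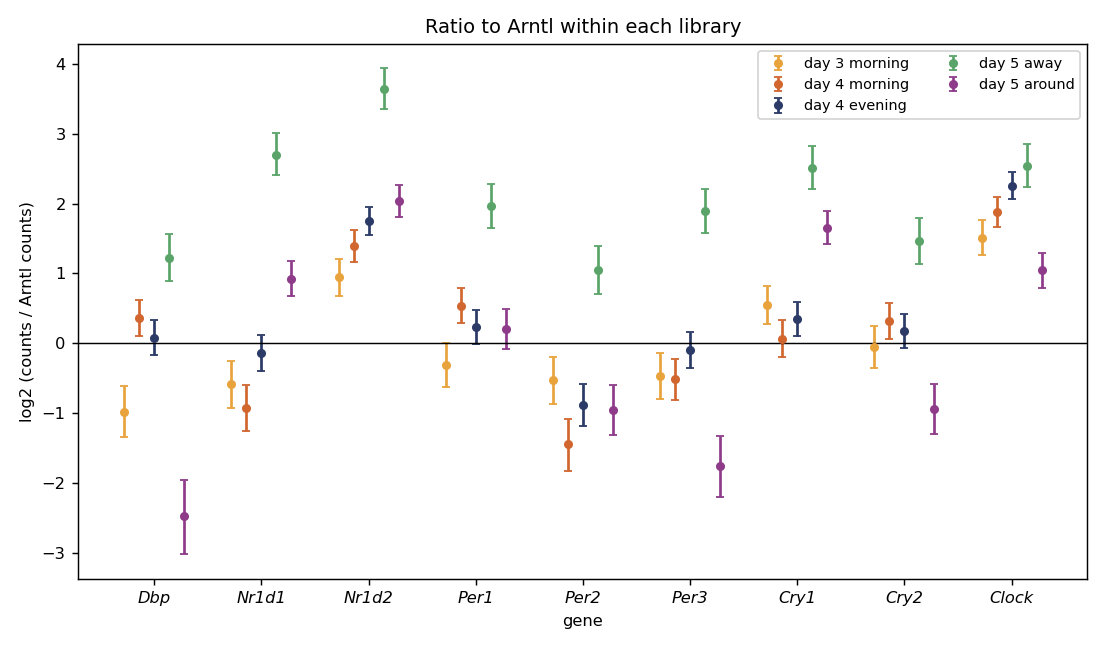
Log2 of the ratio of each clock gene's counts to Arntl counts within the same library (vertical axis), for the 5 libraries, with exact 95% intervals as bars. The day 5 layer away from the embryo is the highest point for each of the 9 genes, and the layer around the embryo is the lowest for Dbp (-2.47), Per3 (-1.75), Cry2 (-0.94) and Clock (1.04).

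Beyond the 10 genes, 22 further genes of the clock pathway were read by role, and 20 passed the filter. The exceptions were Arntl2, an Arntl paralog that never exceeded 2.79 CPM, and Hlf, a PAR bZIP factor that never exceeded 0.89 CPM. Fbxl21, an F-box protein of the ligase family that controls Cryptochrome stability, was the 1 gene past 2-fold above every morning on day 4 evening, at 4.55, 6.74, 20.04, 5.31 and 5.05 CPM, where 0.619% of all genes were so, and none was past 2-fold below every morning (1.35% of all genes). Against day 4 morning alone Nfil3 (2.05) and Fbxl21 (1.56) were past 2-fold higher (7.2% of all genes) and Bhlhe41 (-1.57) lower (6.94%). Bhlhe41 rested on 8 counts in the evening and 31 in the morning, with a wide interval of [-3.10, -0.62]. The median of the 20 was -0.01 where that of the 10 clock genes was 0.70.

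Around the embryo 7 of the 20 were past 2-fold higher than away from it and 1, Tef, was lower, where 13.3% and 15% of all genes were. Of the 3 E-box repressors, 2 were past 2-fold higher and Bhlhe41 was not, at 0.88 [0.43, 1.38]. Bhlhe40, which competes for the E-boxes bound by Arntl and Clock, was at 53.1, 26.9, 25.9, 2.04 and 95.6 CPM, a difference of 5.48 [5.09, 6.06] on day 5. It shares 118 bases with the opposite-strand 0610040F04Rik, which had between 4 and 45 counts. Ciart, another repressor of the heterodimer (listed under its older symbol Gm129), was at 0.806, 2.0, 2.47, 1.18 and 18.2 CPM, a difference of 3.82 [3.32, 4.64]. Bhlhe40 was lowest away from the embryo, and both were highest around it.

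Among the PAR bZIP factors, relatives of Dbp that read the same D-boxes, Tef followed the order of Dbp only in part, at 14.2, 46.2, 43.8, 59.5 and 13.9 CPM. It was 2.09 [1.90, 2.31] lower around the embryo than away from it. Nfil3, which opposes these factors at D-boxes, was at 20.9, 58.6, 243, 526 and 787 CPM, and Npas2, a paralog of Clock, at 22.8, 77.1, 81.3, 191 and 183 CPM. Of the ROR receptors, activators of Arntl, Rora was at 1.09, 6.18, 12.01, 14.3 and 10.04 CPM and Rorb at 10.8, 9.63, 14.3, 33.5 and 25.6 CPM, and neither passed 2-fold between the day 5 sites. The outputs Noct (2.60), Nampt (1.58), Wee1 (1.17) and Usp2 (1.12) and the kinase Gsk3b (1.16) completed the 7 that were higher around the embryo, Wee1 and Usp2 being named for that count after their values were seen. Under library totals 4 of these 7 remained past 2-fold.

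Per1 is also induced by glucocorticoid and by cAMP and serum signals, so genes known to respond to these were read beside it. Per1 differed by 0.08 between the day 4 evening and morning, while Crem was at 225 against 20.8 CPM, Fos at 73.2 against 13.6, Nr4a1 at 15.8 against 1.11 and Egr1 at 13.9 against 5.74. The glucocorticoid-responsive genes did not move together, with Sgk1 at 30.4 CPM in the evening against 284 in the morning, Fkbp5 at 96.6 against 97.3 and Klf9 at 47.2 against 44.7. Tsc22d3 was at 446 CPM in the evening against 712 in the morning, and Zbtb16 at 10.9 against 16.9. On day 5 Egr1 was at 110 CPM around the embryo against 6.00 away from it and Fos at 104 against 19.3, where Per1 was at 13.3 against 22.3, and Tsc22d3 at 137 against 300. From day 3 to day 4 morning, where Per1 was 2.10-fold higher, Zbtb16 was at 1.38 and 16.9 CPM, Fkbp5 at 33.2 and 97.3, Klf9 at 18.2 and 44.7, Tsc22d3 at 385 and 712 and Sgk1 at 793 and 284. On day 5 Zbtb16 was, like Per1 and Tsc22d3, lower around the embryo (1.34 CPM) than away from it (10.7 CPM). Sgk1 (413 against 299 CPM) and Klf9 (134 against 102) were higher around it, and Fkbp5 was level, at 28.4 against 29.0. The part of these signals in the level of Per1 was not tested.

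The genes with the most similar profiles were found by the root mean square difference between centred log2 CPM values over the 5 libraries, among 8816 genes outside the clock lists that averaged 10 CPM or more. Nearest to Dbp were Lipa (0.17), Cnn3 (0.28) and Zfp956 (0.29). Nearest to Per2 were Fam175a (0.057), Exog (0.084) and Pus7 (0.086), and nearest to Arntl were Noc4l (0.12), Chic1 (0.13) and Rasip1 (0.13). Lipa, which encodes lysosomal acid lipase, was at 100, 375, 400, 293 and 56.4 CPM, the same order of libraries as Dbp. Among the clock genes themselves the closest pairs were Per1 with Nr1d2 (0.34) and Clock with Cry2 (0.35), and the farthest was Nr1d1 with Dbp (1.57). With 5 points these distances are descriptions.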

How the data were processed

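RNA-seq measured the luminal layer of wild-type mice in 5 libraries, each its own group. The authors deposited raw counts per gene, as integers, with gene positions and lengths. Per the paper's methods, tissue was laser microdissected, amplified with a SMART-seq kit, aligned to GRCm38/mm10 and counted, and the submitters' processing notes name HISAT2, featureCounts and Subread 2.0.0. The annotation, strand setting and treatment of reads with several alignments are not given in the sources used here.

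Counts were scaled by TMM in edgeR 4.0.16 (R 4.3.3), with DESeq2 1.42.0 size factors as an alternative, and analysed with Python 3.11.15, pandas 2.3.3, numpy 2.4.6 and scipy 1.17.1 (plots with matplotlib 3.10.9). The 12918 genes that averaged 1 CPM or more by library totals were kept. Log2 CPM carries a prior count of 2. Total counts ranged from 15334674 to 19529491, the features Rn45s and Lars2 took from 15.0% to 23.2% of them, and 3 counts equal between 0.161 and 0.190 CPM. Intervals are exact at 95% and were tested on simulated data. The simulated counts were Poisson, which is counting error only, so that check does not cover variation added by amplification. With 1 library per condition, called means past 2-fold and no test was made.

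Named were the 10 clock genes, the pathway genes past 2-fold on day 4 evening against every morning, otherwise up to 3 per role by mean CPM (some listed genes are not reported here), and the 3 nearest profiles to each of Dbp, Per2 and Arntl. The members and lists were chosen with earlier results of these data known. Alternatives were the other scalings, log2(RPKM + 1), a prior count of 0.5, 1.5-fold, the filter dropped or raised to 5 CPM, and leaving out each morning library. The comparisons of day 5 sites and between mornings of different days, and the counts in any amount, were added after the values were seen.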

Additional observations from a re-analysis of the deposited data

Results flagged for a closer look

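Of the 10 clock genes, 3 lay on opposite sides of the day 4 evening library in the day 5 layers, with both intervals away from 0. The share of all genes that meet this rule was not counted, so whether 3 of 10 is many cannot be said. Per3 was 0.44 [0.21, 0.68] above the evening away from the embryo and 2.15 [1.77, 2.62] below it around the embryo, which made the sites differ by -2.59 on the log2 scale. Per2 was 0.39 [0.08, 0.70] above and 0.59 [0.22, 0.98] below, a difference of -0.97. Nr1d2 was 0.34 [0.22, 0.47] above and 0.24 [0.11, 0.38] below, a difference of -0.59. The difference between the sites was not tested, since each has 1 library, and both comparisons share the day 4 evening library.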

How the results depend on the processing

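All 10 clock genes were higher on day 4 evening than on day 4 morning under each of the 5 alternatives of scaling, prior count and RPKM. The number past 2-fold there, 1, was 0 by log2(RPKM + 1) and 6 at 1.5-fold. For day 4 over day 3 morning the 2 past 2-fold higher became 1 by library totals, by totals without Rn45s and Lars2 and by log2(RPKM + 1), and 5 at 1.5-fold, where 1 was lower. Of all genes, 4.16% were past 2-fold higher there by library totals and 5.66% by totals without Rn45s and Lars2. Around against away from the embryo, the 3 lower became 6 by both totals and 7 at 1.5-fold, and the 0 higher became 1, Arntl, with DESeq2 size factors, a prior count of 0.5 or 1.5-fold. Between these sites 21.7% of all genes were past 2-fold lower and 9.97% higher by library totals. By totals without Rn45s and Lars2 these shares were 21% and 10.1%. No share of all genes was counted at 1.5-fold, so the 1.5-fold counts in this paragraph have no background. The number above all mornings, 4, ranged from 4 to 8 when a morning library was left out, with 8 without the day 5 library away from the embryo. The number past 2-fold above every morning, 0, was 1 at 1.5-fold and ranged from 0 to 1, with 1 (Clock) without day 4 morning (1.91% of all genes). Of the 20 pathway genes, the 7 higher around the embryo became 4 by both totals and the 1 lower became 2 at 1.5-fold. Their number past 2-fold below every morning ranged from 0 to 1. The 1 was Bhlhe41, with 8 counts in the evening library, without day 3 morning (1.67% of all genes). The evening minus the mean of the mornings for Cry1, -0.08, was 0.13 with the day 5 libraries averaged first. Fewer calls by log2(RPKM + 1) follow from its pseudocount, and for the others the cause was not tested. No paired analysis was possible because each condition has 1 library. Depth gave between 36 and 1331 counts per clock gene and library, and there were no replicates whose spread could be set beside the counting error. The share of all genes higher on day 4 evening than on day 4 morning was 34.8% with no filter, where many genes are at 0 in both, and 50.1% with a mean of at least 5 CPM.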
